A study of Mus musculus with 8 samples.

Results

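The amino acid transporter genes described here were all rows of the expression files whose symbol begins with Slc1a, Slc3a, Slc6a, Slc7a, Slc36a, Slc38a or Slc43a followed by a number. They made 62 of the 20207 genes, in 7 solute carrier families. Of these, 29 reached 0.5 RPKM (reads scaled to exon length and library size) in at least 1 of the 8 libraries and are reported, and 33 did not. The threshold fell between Slc1a4, which peaked at 0.536 RPKM, and Slc6a9, which peaked at 0.487 RPKM. One row, Slc7a6os, is a neighbour of Slc7a6 on the opposite strand and not a transporter, which leaves 61 rows of transporter symbols. Slc43a3 is counted by its family, although it is known as a carrier of purine nucleobases.

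Transcriptomes were compared between stem and progenitor cells sorted from the bone marrow of normal mice and of mice with chronic myelogenous leukaemia (CML). Long-term (LT) stem cells were CD150+CD48-CD135-KLS+, short-term (ST) stem cells were CD150-CD48-CD135-KLS+, and KLS- cells were committed cKit+Lineage-Sca-1- progenitors. LT-HSC and LT-CML populations had 2 libraries each, and ST-HSC, ST-CML, normal KLS- and CML-KLS- populations had 1 each. According to the study, the CML mice carried Tal1-tTA and TRE-BCR-ABL1, so that BCR-ABL1 was switched on in Tal1-expressing blood cells by doxycycline withdrawal, and normal littermates carried Tal1-tTA only, on an FVB/N background. The labels instead give C57BL/6 for every library and name neither transgene. The labels put the first LT-HSC library, ST-HSC and normal KLS- cells at 2 months of age and the second LT-HSC library at 6 months, and they give no age for the CML mice. The study describes CML mice and littermates of the same age range and of both sexes. Neither source gives different strains for CML and normal mice, although the sources disagree on the strain. A difference of age as labelled, of the TRE-BCR-ABL1 transgene itself or of strain, if there was one, cannot be told apart from disease in any comparison of CML with normal cells. The labels do not give the number of mice behind a library, and all p-values measure the spread between libraries, which may be technical. That spread also holds the age difference of the LT-HSC libraries and, where LT and ST cells are pooled, the difference between them.

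Free amino acids enter cells mainly through membrane carriers. Heteromeric transporters pair a heavy chain, Slc3a2 (4F2hc, CD98) or Slc3a1 (rBAT), which brings the complex to the surface, with a light chain of the Slc7a family, which moves the substrate, usually in exchange for an amino acid going out. Glutamine enters mainly through Slc1a5 (ASCT2) and the sodium-coupled Slc38a carriers. Some members of the Slc36a and Slc38a families, but not all, sit on lysosomes, where they feed amino acid signals to mTORC1.

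The results turned most on the light chain Slc7a8 and the glutamine carrier Slc38a5, and the 250 bases upstream of their RefSeq start sites are shown as the sequence context of the 2 genes. Both are read 5′ to 3′ on the strand of the gene in GRCm38.p6. The Slc7a8 stretch lies at chr14:54781887-54782136 on the minus strand and the Slc38a5 stretch at chrX:8271131-8271380 on the plus strand. Capitals mark an E-box.
Slc7a8: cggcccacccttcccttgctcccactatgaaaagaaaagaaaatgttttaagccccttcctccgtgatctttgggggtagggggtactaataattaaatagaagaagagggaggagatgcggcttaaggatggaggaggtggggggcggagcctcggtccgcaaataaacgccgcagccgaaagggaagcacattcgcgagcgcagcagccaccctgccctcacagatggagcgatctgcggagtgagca
Slc38a5: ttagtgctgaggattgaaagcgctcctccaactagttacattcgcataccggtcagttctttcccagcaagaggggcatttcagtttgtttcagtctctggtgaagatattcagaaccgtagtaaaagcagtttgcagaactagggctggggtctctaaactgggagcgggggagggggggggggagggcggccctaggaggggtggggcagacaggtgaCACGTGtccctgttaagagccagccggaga
The stretches held 55.6% and 55.2% G or C. Both strands were searched for the ATF4 composite element TGATGNAAN, the GATA motif AGATAA, the STAT motif TTCNNNGAA and the E-box CACGTG, and no match overlapped one of another motif. Slc7a8 held none of them, and Slc38a5 held an E-box 30 bases before its start. RefSeq promoters were matched for 20 of the 29 reported members. In this set the E-box stood upstream of Slc43a1, Slc7a14, Slc38a7, Slc36a1 and Slc38a5 and in 6.02% of 32851 promoters, and the STAT motif upstream of Slc7a11, Slc7a1 and Slc38a9 and in 7.02%. The ATF4 composite element stood upstream of Slc7a11, which held 2 copies, and of Slc7a7, and in 3.44% of promoters, and the GATA motif upstream of Slc7a7 alone and in 9.99%. Some members have several start sites, with 29 promoters for the 20 members, and a member was named if any of its promoters held the motif. The shares count single promoters, so the 2 are not like for like. Slc7a7 and Slc7a1 also had promoters with none of these motifs. These matches describe letters and not bound sites.

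Marker transcripts of the gates followed the labels for CD150 and Sca-1, in part for CD48 and not for CD135. The gates read surface protein, which transcripts need not follow. Slamf1 (CD150) was 10.7 to 35.5 RPKM in LT and 0.955 to 2.87 RPKM in all other libraries, and Ly6a (Sca-1) was 72.4 to 152 RPKM in stem and 8.16 and 11.7 RPKM in KLS- libraries. Flt3 transcripts (CD135) nevertheless reached 61.6 and 71.6 RPKM in the ST libraries, which were sorted as CD135-, and Cd48 transcripts 41.8 and 45.2 RPKM in the same libraries, sorted as CD48-. Cd48 was higher still, at 174 and 129 RPKM, in normal KLS- and CML-KLS- cells, whose gate does not include CD48. Kit was 119 to 213 RPKM in stem and 78.4 and 88.2 RPKM in KLS- libraries, all sorted as cKit+. Summed RPKM of 8 granulocyte markers ranged from 246 to 4040 in normal stem libraries and from 319 to 2711 in CML stem libraries, and the second library of each LT group lay above the first. Depth, estimated from the steps between low values, was 17.8 to 23.9 M reads, so that 3 reads of a 1 kb transcript corresponded to 0.126 to 0.168 RPKM.

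**Figure D1:**
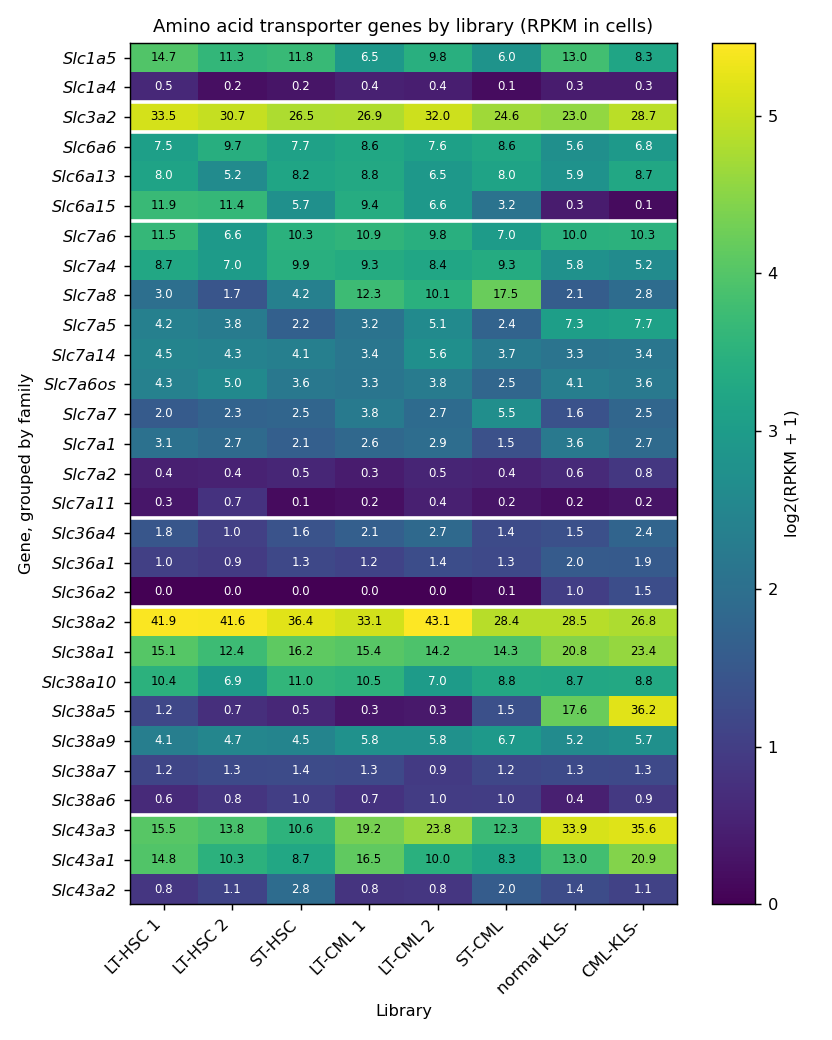
RPKM of the 29 reported members (rows, grouped by family) in each of the 8 libraries (columns). Cells print the RPKM and colours show log2(RPKM + 1). Slc38a2 and Slc3a2 are high in every library, Slc7a8 stands out in the 3 CML stem libraries and Slc38a5 in both KLS- libraries.

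Most reported members were present in all populations. In every library 22 of the 29 reached 0.5 RPKM and 19 reached 1 RPKM, and 11 reached 10 RPKM in at least 1 library. The share of rows reported was uneven between families: 10 of 16 in Slc7a, 7 of 11 in Slc38a, 3 of 3 in Slc43a, 3 of 4 in Slc36a, 2 of 7 in Slc1a, 1 of 2 in Slc3a and 3 of 19 in Slc6a, the family of neurotransmitter, osmolyte and amino acid carriers. Slc7a10 and Slc6a14 were listed at 0 in all 8 libraries. The summed RPKM of all members was 190 to 260 per library.

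The transcript with the highest mean was Slc38a2 (SNAT2), a sodium-coupled carrier of small neutral amino acids, with 41.9, 41.6 and 36.4 RPKM in LT-HSC 1, LT-HSC 2 and ST-HSC, 33.1, 43.1 and 28.4 RPKM in LT-CML 1, LT-CML 2 and ST-CML, and 28.5 and 26.8 RPKM in normal KLS- and CML-KLS- cells. The normal and CML stem libraries overlapped. The heavy chain Slc3a2 followed, with 33.5, 30.7 and 26.5 RPKM in the normal stem libraries, 26.9, 32.0 and 24.6 RPKM in the CML stem libraries and 23.0 and 28.7 RPKM in normal KLS- and CML-KLS- cells. The populations overlapped for this gene, with 30.3 ± 3.53 RPKM in normal and 27.8 ± 3.81 RPKM in CML stem cells (SD, n = 3 each). Next in the order of means over 8 libraries came Slc43a3 (20.6 RPKM), Slc38a1 (16.5), Slc43a1 (12.8), Slc1a5 (10.2), Slc7a6 (9.57), Slc38a10 (9.01), Slc7a4 (7.95) and the taurine carrier Slc6a6 (7.75). Over the 6 stem libraries, the ranges of neighbours in this order overlapped, except for Slc3a2 and Slc43a3, so most of the order is not resolved.

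The study asked how nutrient supply differs between CML stem cells and normal HSCs, and the pooled comparison set the 3 CML stem libraries against the 3 normal ones. It held no term for cell type, so LT and ST libraries of a state formed a single group. One transporter rose, the light chain Slc7a8 (LAT2), which exchanges large and small neutral amino acids. Slc7a8 was 3.01, 1.71 and 4.22 RPKM in LT-HSC 1, LT-HSC 2 and ST-HSC, and 12.3, 10.1 and 17.5 RPKM in LT-CML 1, LT-CML 2 and ST-CML. All CML stem libraries lay above all normal stem libraries, with means of 13.3 ± 3.79 and 2.98 ± 1.25 RPKM (SD, n = 3 each), a ratio of 4.46. In a limma fit across all 12561 genes with a total above 1 RPKM, the difference in log2(RPKM + 1) was 1.86 (SE 0.28, adjusted p = 0.0180). In these bulk libraries, more cells expressing the gene and more RNA per cell cannot be told apart. The exact two-sided permutation test of this gene alone gave p = 0.1, the smallest that 3 libraries against 3 allow. An estimated 165 to 320 reads lay behind each normal value and 740 to 1312 reads behind each CML value. The gene lies at chr14:55341053-55400723 on the minus strand of mm9 (GENCODE M1), with 4033 exon bases in 11 blocks and no exon overlap with another gene.

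The call on Slc7a8 was lost when certain libraries were left out. The difference was 1.89 without LT-HSC 1 (adjusted p = 0.0754 in limma), 1.90 without LT-CML 1 (adjusted p = 0.0803) and 1.66 without ST-CML (adjusted p = 0.0519), so its size held while the threshold was missed. Without the second library of both LT groups, those with more granulocyte transcripts, it was 1.78 (adjusted p = 0.0892). Over all alternatives the adjusted p in limma ran from 0.00120, with cell type as a covariate, to 0.123, without the filter. Summed markers of granulocytes, erythroid cells, megakaryocytes, basophils and mast cells, monocytes and lymphocytes each overlapped between the 3 normal and 3 CML stem libraries. Among stem libraries the granulocyte sum was highest in LT-HSC 2 (4040 RPKM), mainly from S100a8 (1802 RPKM), S100a9 (856), Ngp (688) and Camp (432). The KLS- libraries summed to 9490 and 15562 RPKM, mainly from Mpo (7891 and 13120 RPKM), so these sums hold unlike transcripts. The part of any of these cells in the difference of Slc7a8 was not tested.

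Of 33 members tested, 29 reported and 4 below the threshold of 0.5 RPKM, Slc7a8 was the 1 called in the pooled comparison, beside 2.34% of all genes tested. Unadjusted p lay under 0.05 for 4 members, beside 12.5% of all genes. The 3 CML and 3 normal stem libraries did not overlap for 5 of the 33, beside 18.3% of all genes. Of these 5, Slc7a8, Slc7a7, Slc38a9 and Slc7a3 were higher in CML and Slc1a5 was lower. Slc7a3 stayed below 0.5 RPKM and passed the filter on total RPKM only through CML libraries. Its values of 0.0679 RPKM in ST-CML and 0.0634 RPKM in LT-HSC 1 each rested on an estimated 4.8 reads, so its separation is not resolved. The median difference of the members was 0.01 on the log2 scale and that of all genes was -0.04.

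Slc1a5 (ASCT2), the exchanger that brings glutamine into many cells, was 14.7, 11.4 and 11.8 RPKM in the normal stem libraries and 6.52, 9.82 and 5.97 RPKM in the CML stem libraries. The groups did not overlap, and the CML libraries were the lower ones. The fitted difference was -0.71 (SE 0.20), which missed the threshold in the limma fit (adjusted p = 0.174). It passed when all 8 libraries were fitted with cell type as a covariate (-0.68, adjusted p = 0.0310 in limma), with adjusted p from 0.0310 to 0.491 over all alternatives. The KLS- libraries, which enter that fit, held 13.0 RPKM in normal and 8.28 RPKM in CML cells, a difference in the same direction.

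Slc7a7 (y+LAT1), which exchanges cationic for neutral amino acids, was 1.98, 2.33 and 2.45 RPKM in the normal stem libraries and 3.77, 2.75 and 5.54 RPKM in the CML stem libraries. The groups did not overlap, but the difference of 0.59 (SE 0.22) missed the threshold (limma adjusted p = 0.307), and it was 0.38 without ST-CML (adjusted p = 0.589), with adjusted p from 0.0552 to 0.641 over all alternatives. Of its exon bases, 226 overlap those of Oxa1l on the other strand, and as the library kit does not mark strand, reads from the overlap cannot be assigned. Slc38a9, a lysosomal arginine sensor upstream of mTORC1, was 4.08, 4.70 and 4.54 RPKM in normal and 5.77, 5.78 and 6.69 RPKM in CML stem libraries. Its groups stood apart by a small step of 0.38 (SE 0.14, limma adjusted p = 0.322).

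Slc7a7 and Slc7a8 lie on the same strand of chromosome 14 in mm9, 308196 bases apart. Between them lie 14 genes of the files, 12 of which were tested. The pooled limma comparison called 0 of these 12, beside 2.34% of all genes, and 2 did not overlap between the groups, beside 18.3%. Their differences ran from -0.40 to 0.46.

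**Figure D2:**
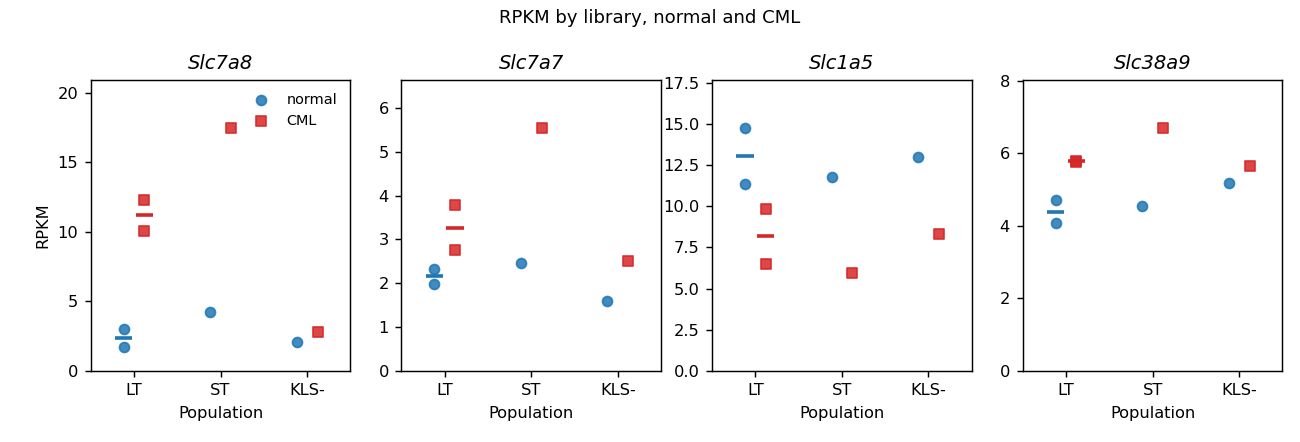
RPKM of Slc7a8, Slc7a7, Slc1a5 and Slc38a9 (vertical axes, from 0) in LT, ST and KLS- populations, with circles for normal and squares for CML libraries and a bar for the mean of the 2 LT libraries. CML stem libraries lie above normal ones for Slc7a8, Slc7a7 and Slc38a9 and below them for Slc1a5, while Slc7a8 is at 2.06 and 2.82 RPKM in the KLS- libraries.

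Among LT cells alone, with 2 libraries per group, Slc7a8 again was the 1 member of 33 called, beside 1.73% of all genes. This comparison uses libraries of the pooled one and is not independent of it. LT-HSC cells had 2.36 ± 0.916 and LT-CML cells 11.2 ± 1.60 RPKM (SD, n = 2 each), and the difference was 1.88 (SE 0.25, limma adjusted p = 0.0143). It was 1.60 without LT-HSC 2 (adjusted p = 0.0967), 1.75 without LT-CML 1 (adjusted p = 0.229) and 2.02 without LT-CML 2 (adjusted p = 0.192), and over all alternatives the adjusted p ran from 0.00333 to 0.289. Flt3, which the CD135- gate should deplete, was 3.95 and 2.52 RPKM in LT-HSC and 11.9 and 19.2 RPKM in LT-CML libraries. Cd48, which the CD48- gate should deplete, was 10.5 and 5.17 RPKM in LT-HSC and 16.8 and 29.5 RPKM in LT-CML libraries. The part of either in the difference of Slc7a8 was not tested. The libraries did not overlap for 13 members, beside 40.5% of all genes.

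In ST cells there was 1 library per state, and the values were compared without a test. Slc7a8 was 4.22 RPKM in ST-HSC and 17.5 RPKM in ST-CML cells, a log2 difference of 1.82, and it was the 1 member of 33 with a difference of at least 1, beside 4.04% of all genes. Slc7a7 differed by 0.92 and Slc1a5 by -0.87. Between normal KLS- and CML-KLS- cells, also 1 library each, Slc7a8 differed by 0.32 and Slc1a5 by -0.59. There the 1 member with a difference of at least 1 was Slc38a5, at 17.6 and 36.2 RPKM (log2 difference 1.003), beside 3.24% of all genes. With quantile or upper-quartile scaling no member reached that size in KLS- cells.

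Whether the CML difference itself depended on the cell population was tested with an interaction term. Slc7a8 had the lowest adjusted p among the members. Its CML difference was larger in stem than in KLS- cells by 1.54 on the log2 scale (SE 0.37), with an unadjusted p of 0.00294 and an adjusted p of 0.595 in limma. The fit called 0 of the 33 members, beside 0.0717% of all genes, and 1 member had an unadjusted p under 0.05, beside 3.79% of all genes.

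The make-up of the light chains that pair with Slc3a2 differed between the states through Slc7a8. Slc7a5 (LAT1), Slc7a6 (y+LAT2), Slc7a7, Slc7a8, Slc7a10 and Slc7a11 (xCT) together summed to 21.0, 15.2 and 19.3 RPKM in LT-HSC 1, LT-HSC 2 and ST-HSC, and to 30.4, 28.2 and 32.6 RPKM in LT-CML 1, LT-CML 2 and ST-CML. The sums of all CML stem libraries were above those of all normal ones. Slc7a8 made up 14.3%, 11.2% and 21.9% of the sum in the normal and 40.5%, 35.8% and 53.5% in the CML stem libraries. Without Slc7a8 the sums overlapped, with 15.5 ± 2.27 RPKM in normal and 17.1 ± 1.70 RPKM in CML stem cells (SD, n = 3 each). Relative to Slc3a2, the light chains summed to 0.626, 0.496 and 0.726 in the normal and to 1.13, 0.879 and 1.33 in the CML stem libraries. These ratios restate Slc7a8 and are given as a description of transcripts, which need not follow the amounts of protein.

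The main light chain by transcript was Slc7a6 in LT-HSC and ST-HSC cells, with 11.5, 6.60 and 10.3 RPKM, and in KLS- cells, with 10.03 RPKM in normal and 10.3 RPKM in CML libraries. In the CML stem libraries Slc7a6 stood at 10.9, 9.84 and 7.03 RPKM, below Slc7a8 in each. Slc7a5, the light chain most often tied to leucine uptake, was 4.24, 3.83 and 2.21 RPKM in normal and 3.23, 5.11 and 2.35 RPKM in CML stem libraries, which overlapped. Slc7a11, which imports cystine, was 0.121 to 0.749 RPKM in all libraries. The second heavy chain, Slc3a1, did not exceed 0.0653 RPKM and its partner Slc7a9 did not exceed 0.0281 RPKM. An estimated 3 reads or fewer lay behind each value of both.

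**Figure D3:**
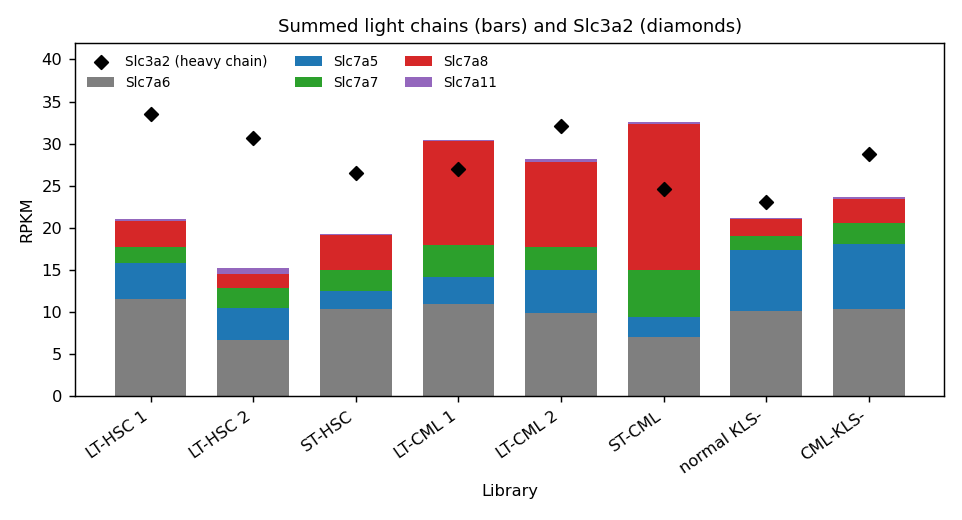
Stacked bars show the RPKM of the light chains Slc7a6, Slc7a5, Slc7a7, Slc7a8 and Slc7a11 in each of the 8 libraries, and diamonds the RPKM of the heavy chain Slc3a2, on 1 axis from 0. Slc7a10, listed at 0, adds nothing. The Slc7a8 segment is 35.8% to 53.5% of the bar in the CML stem libraries and 9.70% to 21.9% in the others.

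KLS- progenitors were compared with stem cells in a fit of all 8 libraries with disease as a covariate. Of 33 members, 7 rose, beside 22.2% of all genes, and 5 fell, beside 26.5%. The 12 called made 36.4% of the members, below the 48.7% of all genes called. Without CML-KLS-, 5 members were called: Slc38a5, Slc36a2, Slc43a3, Slc7a5 and Slc6a15. The median difference was 0.03 for the members and -0.08 for all genes. The sums of granulocyte, erythroid and monocyte markers were all higher in both KLS- libraries than in any stem library, at 9490 and 15562, 864 and 1872, and 828 and 1083 RPKM. Most of each sum came from 1 gene, with Mpo at 7891 and 13120, Car1 at 804 and 1775 and Ly6c2 at 785 and 1039 RPKM. Of 8 granulocyte markers tested, limma called 3 higher (Mpo, Prtn3 and Ctsg) and 0 lower. Ngp was 7.06 and 20.9 RPKM in KLS- libraries, 0.458 RPKM in ST-HSC and 54.2 to 688 RPKM in the other stem libraries. The part of these markers in the differences below was not tested.

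The largest rise was that of Slc38a5 (SNAT5), which carries glutamine, asparagine, histidine and serine. Slc38a5 was 1.24, 0.655 and 0.517 RPKM in LT-HSC 1, LT-HSC 2 and ST-HSC, 0.261, 0.296 and 1.50 RPKM in LT-CML 1, LT-CML 2 and ST-CML, and 17.6 and 36.2 RPKM in normal KLS- and CML-KLS- cells. Both KLS- libraries lay far above all stem libraries, with estimated reads of 797 and 1444 against 12.1 to 62.9. The fitted difference was 3.91 (SE 0.32, limma adjusted p = 5.54e-05), and it ranged from 3.33 to 5.01 over the alternatives with adjusted p up to 0.00596. Car1, an erythroid marker singled out after the values were seen, was 2.71, 6.11, 21.6, 26.7, 30.6, 91.7, 804 and 1775 RPKM when the libraries were ordered by rising Slc38a5. The order of the libraries was therefore the same for both genes, which was not so for the other erythroid markers measured, and Hba-a1 was listed at 0 throughout. Gata1 was 34.9 RPKM in LT-CML 1, the lowest in Slc38a5, and 3.4 RPKM in ST-CML, the highest stem library. Hbb-b1 was 56.3 RPKM in LT-HSC 2 and 2.21 and 1.61 RPKM in normal KLS- and CML-KLS- cells. Of 6 erythroid markers tested in KLS- against stem cells, limma called 5 higher and 0 lower. A relation of Slc38a5 to erythroid cells was not tested.

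Smaller differences were measured for the other glutamine carriers. Slc38a1 (SNAT1) rose from 14.6 ± 1.32 RPKM in stem (SD, n = 6) to 22.1 ± 1.82 RPKM in KLS- libraries (SD, n = 2), a difference of 0.55 (SE 0.14, limma adjusted p = 0.00951) that missed the threshold without either KLS- library (adjusted p = 0.125 without CML-KLS- and 0.0548 without normal KLS-). Slc38a2 was 37.4 ± 5.84 RPKM in stem (SD, n = 6) and 27.6 ± 1.22 RPKM in KLS- libraries (SD, n = 2), with a difference of -0.36 (SE 0.14) that just missed the threshold (limma adjusted p = 0.0532). Slc1a5 was 10.03 ± 3.34 and 10.6 ± 3.34 RPKM in the same groups, and its KLS- libraries lay within the stem range. The KLS- group pools normal and CML cells, and the stem group pools LT and ST cells of both states. These SDs therefore include differences between states and populations and are not a spread of replicates.

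The largest fall was that of Slc6a15 (B0AT2), a sodium-coupled carrier of branched-chain amino acids and proline known best from the brain. Slc6a15 was 11.9, 11.4 and 5.72 RPKM in the normal stem libraries, 9.40, 6.58 and 3.24 RPKM in the CML stem libraries, and 0.329 and 0.124 RPKM in normal KLS- and CML-KLS- cells. It was near the detection limit in KLS- cells, with an estimated 24 and 8 reads, and present in all stem libraries with 218 to 982. The difference was -2.62 (SE 0.16, limma adjusted p = 1.71e-05) and was called under all alternatives run, from -4.40 with a pseudocount of 0.1 to -2.41.

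Slc36a2 (PAT2), a proton-coupled carrier of small amino acids such as glycine and proline, was listed at 0 in 5 of 6 stem libraries and at 0.0883 RPKM in ST-CML, and was 1.01 and 1.46 RPKM in normal KLS- and CML-KLS- cells. Against a floor of 3 reads per library it was at least 20.7-fold higher in normal KLS- cells than in any normal stem library. The fit called it (limma adjusted p = 7.34e-05). Slc36a2 passed the 0.5 RPKM level and the filter on total RPKM only through the KLS- libraries, where it was high. Its call is therefore no independent support for the rise.

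The carriers of large neutral amino acids Slc7a5 and Slc43a1 also rose. Slc7a5 was 7.35 and 7.72 RPKM in normal KLS- and CML-KLS- cells and 2.21 to 5.11 RPKM in stem libraries, with a difference of 1.07 (SE 0.16, limma adjusted p = 0.000937). Slc43a1 (LAT3) rose by 0.62 (SE 0.23, limma adjusted p = 0.0484) and its difference was 0.30 without CML-KLS- (adjusted p = 0.485). It also missed the threshold, with adjusted p from 0.0536 to 0.136, without LT-HSC 2, LT-CML 2, ST-HSC or ST-CML. Its normal KLS- value of 13.0 RPKM lay within the stem range of 8.32 to 16.5 RPKM, and the CML-KLS- value of 20.9 RPKM above it. Slc43a3 reached 33.9 and 35.6 RPKM against 10.6 to 23.8 RPKM in stem libraries, a difference of 1.23 (SE 0.15, limma adjusted p = 0.000349). Slc36a1 (PAT1), a lysosomal proton-coupled carrier, rose by 0.42 (SE 0.12, limma adjusted p = 0.0203), with 1.98 and 1.94 RPKM against 0.921 to 1.44 RPKM, but missed the threshold without normal KLS- (0.33, adjusted p = 0.192), CML-KLS- (0.50, adjusted p = 0.0731) or ST-CML (0.40, adjusted p = 0.0697).

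The remaining members that fell in KLS- cells did so by smaller steps. Slc7a4, a cationic transporter relative whose substrate is unsettled, was 5.81 and 5.18 RPKM against 6.97 to 9.88 RPKM in stem libraries (-0.62, SE 0.14, limma adjusted p = 0.00740), and its exons overlap those of P2rx6 on the other strand. Without CML-KLS- its difference was -0.50 (adjusted p = 0.119). The fall of Slc7a8 by 1.20 (SE 0.31, limma adjusted p = 0.0123) came with KLS- values of 2.06 and 2.82 RPKM, which lay below all CML stem libraries but within the normal stem range of 1.71 to 4.22 RPKM. It was -0.44 without CML-KLS- (adjusted p = 0.248) and -1.97 without normal KLS-. Slc7a7 (-0.46, SE 0.16, limma adjusted p = 0.0438) and the glycine carrier Slc6a9 (-0.31, SE 0.10, adjusted p = 0.0321, at most 0.487 RPKM) were near the threshold. Both missed it when either KLS- library, the first library of either LT group or ST-CML was left out, and Slc7a7 also without LT-HSC 2. The limma adjusted p reached 0.278 for Slc7a7 and 0.181 for Slc6a9 without CML-KLS-. Exons of Slc6a9 overlap those of Ccdc24 and other genes on the other strand, and reads from the overlap cannot be assigned. An estimated 4.7 and 11 reads lay behind its values in normal KLS- and CML-KLS- cells.

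ST cells were compared with LT cells in the same fit, and 2 of 33 members were called, beside 4.87% of all genes. Slc43a2 (LAT4), which lets out branched-chain amino acids, was 0.831 and 1.15 RPKM in LT-HSC, 0.778 and 0.822 RPKM in LT-CML, 2.84 RPKM in ST-HSC and 2.01 RPKM in ST-CML cells. Both ST libraries lay above all LT libraries, and the difference was 0.85 (SE 0.13, limma adjusted p = 0.00806). Slc6a15 went the other way, with 6.58 to 11.9 RPKM in LT and 5.72 and 3.24 RPKM in ST libraries, a difference of -0.99 (SE 0.17, limma adjusted p = 0.0134). Neither was called once an ST library was left out, with adjusted p of 0.126 without ST-HSC and 0.0662 without ST-CML for Slc43a2 and of 0.0931 and 0.197 for Slc6a15. Slc6a15 thus stepped down from LT to ST to KLS- cells within each state, while Slc43a2 was highest in ST cells. ST and LT libraries did not overlap for 9 members, 2 higher and 7 lower in ST cells, beside 24.2% of all genes. The adjusted p of the pair ran from 0.00621 to 0.126 and from 0.00836 to 0.197 over all alternatives. Megakaryocyte markers summed to 276 to 470 RPKM in LT and 30.9 and 43.4 RPKM in ST libraries, and their part in these differences was not tested.

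**Figure D4:**
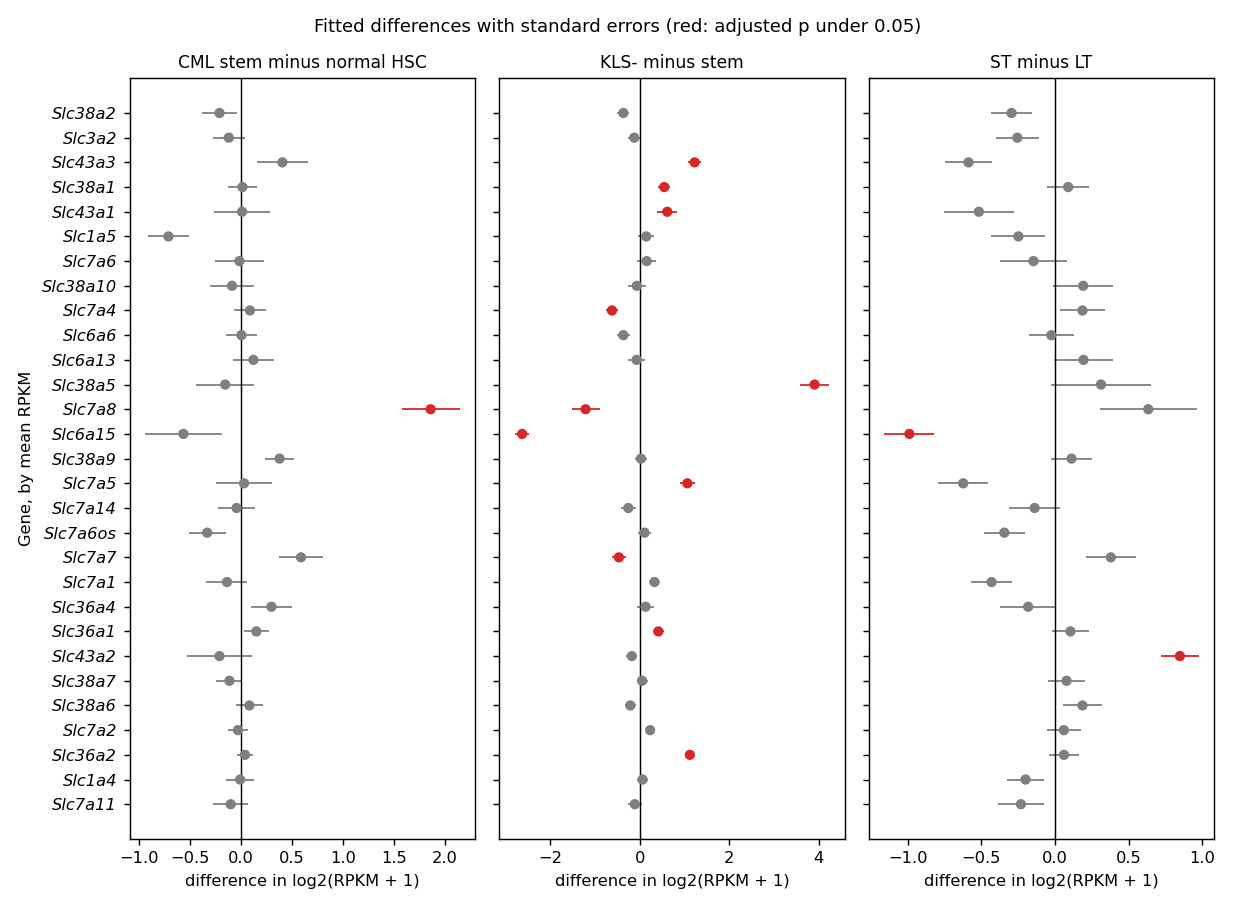
Fitted differences in log2(RPKM + 1) of the 29 reported members, ordered by mean RPKM, for CML stem against normal HSC, KLS- against stem and ST against LT cells, with bars of 1 standard error and the called members in red. Slc7a8 stands apart at 1.86 in the first panel, Slc38a5 at 3.91 and Slc6a15 at -2.62 in the second, and Slc43a2 at 0.85 and Slc6a15 at -0.99 in the third. The horizontal scales differ between panels.

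Across the pooled, LT, KLS- and ST comparisons, 12 of the 29 reported members were called at least once, beside 51.3% of all genes, and 17 were not. Among these 17 were the cationic amino acid carriers Slc7a1, at 1.55 to 3.60 RPKM, and Slc7a2, at 0.338 to 0.845 RPKM, the lysosomal glutamine carrier Slc38a7, at 0.904 to 1.38 RPKM, and the proton-coupled carrier Slc36a4, at 1.04 to 2.66 RPKM. The fitted differences of the 17 lay between -0.71 and 0.52 on the log2 scale in these 4 comparisons. Slc7a6os, at 2.48 to 4.99 RPKM, is among them.

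Genes that sense or use imported amino acids were followed alongside. In the pooled and in the LT comparison of CML with normal cells, 0 of 23 amino acid response genes (targets and kin of the transcription factor ATF4) and 0 of 25 enzymes of imported amino acids were called by limma, and 3 and 2 of them in the pooled and 4 and 3 in the LT comparison had an unadjusted p under 0.05, beside 12.5% and 11.6% of all genes. Of 14 other amino acid and peptide transporters tested, 1 rose in both, the dipeptide transporter Slc15a2, by 1.43 in the pooled comparison (SE 0.14, limma adjusted p = 0.00285). Slc15a2 was 2.64, 3.07 and 3.13 RPKM in the normal and 8.75, 9.94 and 10.3 RPKM in the CML stem libraries, and 1.31 and 2.28 RPKM in normal KLS- and CML-KLS- cells. Its order of libraries by state was like that of Slc7a8, with all CML stem libraries above all others. The study had singled out Slc15a2 by screening its own RNA sequencing for genes raised in LT-CML cells over CML-KLS- cells and LT-HSCs. The rise and order of Slc15a2 here are therefore no independent support. The study also measured this gene by quantitative PCR.

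In KLS- against stem cells, 8 of 23 amino acid response genes rose and 5 fell, beside 22.2% and 26.5% of all genes. The risers were enzymes of serine, one-carbon, proline and asparagine synthesis, such as Asns, at 67.6 and 142 RPKM in KLS- and 18.2 to 43.5 RPKM in stem libraries (1.82, SE 0.19, limma adjusted p = 0.000142), and Mthfd2 (1.93, SE 0.25, adjusted p = 0.000450). Those that fell were stress regulators, among them Trib3 (-1.66, SE 0.27, limma adjusted p = 0.00139) and Nupr1 (-1.96, SE 0.26, adjusted p = 0.000477). Of the 25 enzymes 11 rose, with Ass1 of arginine synthesis first (2.17, SE 0.22, limma adjusted p = 0.000125), while glutamine synthetase Glul fell (-1.30, SE 0.16, adjusted p = 0.000314). Of the 14 other transporters 5 rose, and Slc15a2 fell (-1.25, SE 0.20, limma adjusted p = 0.00130). In ST against LT cells, Mthfd2, Nupr1 and Odc1 were lower and the vesicular transporter Slc17a9 higher. The interaction fit called 1 enzyme, Bcat1, the cytosolic branched-chain aminotransferase, at 7.15 RPKM in CML-KLS- cells and at most 0.718 RPKM in the other 7 libraries.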

How the data were processed

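RNA-seq of 8 sorted bone marrow libraries was analysed. The authors primed RNA with oligo-dT and amplified it with a kit for very small inputs, which does not mark strand, mapped the paired-end reads to mm9, and deposited RPKM values per gene. The annotation, the counting rule and the treatment of reads with several matches are not given in the sources used here, so values of close paralogues are uncertain.

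Groups came from the labels. The members and all gene lists were chosen with earlier results of these data known. RPKM was transformed to log2(RPKM + 1), which understates changes of low genes. The 12561 genes whose RPKM summed to more than 1 were fitted with limma (version 3.58.1, R 4.3.3, moderated variances with a mean trend). P-values were adjusted over all these genes by Benjamini-Hochberg, and 0.05 was the threshold. The pooled comparison had 4 residual degrees of freedom, the LT comparison 2 (6 population means over 8 libraries), the KLS- and ST comparisons 4 (cell type and disease) and the interaction 3. With 1 library per group, log2 differences of at least 1 were counted. The steps were tested on simulated data.

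Named members were those called, those past that difference, the 10 highest means, the heavy and light chains, and those whose 3 CML and 3 normal stem libraries did not overlap with a log2 difference of at least 0.5. Slc38a9, Slc7a3, Slc1a4, Slc6a14, Slc1a6, Slc7a1, Slc7a2, Slc7a6os, Slc7a14, Slc38a7, Slc36a4 and Car1 were named for counts or patterns after their values were seen.

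Read depth was estimated from low RPKM values, which lay within 0.03 reads of whole numbers of a step in 76.3% of 4197 low genes, and from GENCODE M1 exon lengths (NCBIM37). The scale chosen was shared by 903 of 2979 genes. Amplified reads are not independent molecules, so read numbers speak to counting error only. Of 62 members 61 matched 1 locus, and Slc38a9 matched 2. Promoters came from RefSeq (GRCm38.p6).

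Alternatives were a pseudocount of 0.1, no filter, a mean of at least 1 RPKM, quantile and upper-quartile scaling, no trend, other covariates or samples, and leaving out each library. Leaving out both second LT libraries was added after the data were seen. Results of some listed genes are not reported here.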

Additional observations from a re-analysis of the deposited data

How the results depend on the processing

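Alternatives were run for the named differences of members called or not overlapping between CML and normal stem libraries by at least 0.5, and for Slc7a8 in the interaction fit. These kept their sign, and of the 295 values 245 kept their side of the threshold, 49 missed it and 1 newly passed it. With each library left out in turn, called members ranged from 0 to 1 of 33 in the pooled comparison, from 0 to 1 in LT cells, from 5 to 11 in KLS- against stem cells, from 0 to 3 in ST against LT cells, and were 0 in the interaction fit. The pooled count was 2 with all 8 libraries and cell type as a covariate, which added Slc1a5, and 0 without both second LT libraries. Without the filter, which adds genes near 0 to the fit, the count was 0 in LT and in ST against LT cells and 1 in the interaction fit (Slc1a6), and the 1 pooled call was Slc1a6, at most 0.0555 RPKM in any library, in place of Slc7a8 (adjusted p = 0.123 in limma). Members past a log2 difference of 1 numbered 2 in KLS- cells and 3 in ST cells with a pseudocount of 0.1, 2 in ST cells with upper-quartile scaling, and 0 in KLS- cells with quantile or upper-quartile scaling. Of the genes called in KLS- against stem cells 45.6% were higher, 52.0% with quantile and 40.03% with upper-quartile scaling, where the median of all genes was -0.14. The cause of these changes was not tested.

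No paired analysis was possible because the normal libraries carry no replicate number in the labels. The interaction could not be fitted without either KLS- library. Populations rest on 1 or 2 libraries each, and members under 0.5 RPKM rest on few reads.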
